A study of Homo sapiens with 34 samples.

Results

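The integrin subunits of leukocytes were examined in B-cell acute lymphoblastic leukaemia (B-ALL) cells after loss of cyclin D3 or inhibition of its partner kinases. The set held 10 genes: *ITGAD*, *ITGAL*, *ITGAM*, *ITGAX*, *ITGB2*, *ITGA4*, *ITGA5*, *ITGA6*, *ITGB1* and *ITGB7*. They were found by their symbols in each of the 6 deposited tables and read there in both groups of the table. All 10 were listed in all 6 tables, out of 17587 genes listed in at least 1 table and 13307 listed in every table. The set was chosen by measured values of these samples, so its values are given as a description.

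The cells were 3 established B-ALL lines, of which BV-173 carries BCR-ABL, NALM-6 carries ETV6-PDGFRB and RS4;11 carries MLL-AF4, so that the last is also called the MLL-AF4 line below. In each line 1 group received a lentiviral shRNA against *CCND3* and 1 a scrambled shRNA, both collected on day 4 as sorted cells carrying the red fluorescent protein of the vector, and 1 group received 1 µM palbociclib, an inhibitor of CDK4 and CDK6, and 1 its solvent DMSO for 3 days. The 34 samples made 12 groups of 3, except for 2 samples of *CCND3* shRNA in NALM-6 and 2 of DMSO in BV-173. A single shRNA stands for the knockdown in these data, and each line is 1 model of its fusion. Each deposited table compares 2 groups and gives 1 level per group, a read-based abundance whose scaling is not given in the sources used here. If ratios of low genes were drawn towards 1 when the levels were made, the folds of *ITGAD* would be affected, which was not tested. The spread between samples is therefore not known here, no test was made, and each ratio below is a description of 2 group values. The levels of a group summed to between 17810468 and 20756235, and the depth per sample is unknown.

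Integrins are cell surface receptors, each built of 1 alpha and 1 beta chain. *ITGB2* encodes the β2 chain (CD18) of the leukocyte integrins, which bind ICAM proteins and complement fragments when white cells arrest on vessel walls or take up particles. Its alpha partners are αL (*ITGAL*, CD11a, of LFA-1), αM (*ITGAM*, CD11b, of Mac-1), αX (*ITGAX*, CD11c) and αD (*ITGAD*, CD11d, known mainly from macrophages). The α4 chain (*ITGA4*, CD49d) pairs with β1 (*ITGB1*, CD29) in VLA-4, a receptor for VCAM-1 and fibronectin in the marrow, or with β7 (*ITGB7*) in the gut-homing receptor. The α5 (*ITGA5*) and α6 (*ITGA6*) chains pair with β1 to bind fibronectin and laminin, respectively.

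On GRCh38.p14, *ITGAD* lies at chr16:31393335-31426505, *ITGAX* at chr16:31355176-31382999 and *ITGAM* at chr16:31259975-31332877, next to each other, while *ITGAL* lies apart on the same chromosome at chr16:30472742-30523185. *ITGB2* lies at chr21:44885953-44928815. *ITGA6* (chr2:172427336-172506459) and *ITGA4* (chr2:181457205-181538940) share a chromosome, as do *ITGB7* (chr12:53191323-53207251) and *ITGA5* (chr12:54395261-54419266). *ITGB1* lies at chr10:32900318-32958230.

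RefSeq promoter sequence was at hand for 6 of the 10 genes, in 8 windows, and was read for the 250 bases before the annotated start. The core GAGGAA, bound by the myeloid and B-cell factor PU.1, was present on either strand in 3 of the 8 windows, and in 23.6% of all 35116 windows of that length. These 3 windows are shown, because *ITGAM* and *ITGB7* differed after knockdown in RS4;11 and *ITGB1* was within 1.5-fold there. Capitals mark the core or its reverse complement TTCCTC. The windows are chr16:31259725-31259974 on the plus strand for *ITGAM*, and on the minus strand chr12:53207252-53207501 for *ITGB7* and chr10:32958231-32958480 for *ITGB1*, each printed 5′ to 3′ on the strand of its gene.
ITGAM: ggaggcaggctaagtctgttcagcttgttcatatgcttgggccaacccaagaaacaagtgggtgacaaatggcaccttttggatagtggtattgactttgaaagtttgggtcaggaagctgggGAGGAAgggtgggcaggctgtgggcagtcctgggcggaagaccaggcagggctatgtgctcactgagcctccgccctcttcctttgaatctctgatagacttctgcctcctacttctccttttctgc
ITGB7: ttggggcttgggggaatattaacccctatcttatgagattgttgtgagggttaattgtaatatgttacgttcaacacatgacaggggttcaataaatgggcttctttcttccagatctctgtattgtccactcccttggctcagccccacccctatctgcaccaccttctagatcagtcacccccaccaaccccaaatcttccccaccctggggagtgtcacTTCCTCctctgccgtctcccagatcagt
ITGB1: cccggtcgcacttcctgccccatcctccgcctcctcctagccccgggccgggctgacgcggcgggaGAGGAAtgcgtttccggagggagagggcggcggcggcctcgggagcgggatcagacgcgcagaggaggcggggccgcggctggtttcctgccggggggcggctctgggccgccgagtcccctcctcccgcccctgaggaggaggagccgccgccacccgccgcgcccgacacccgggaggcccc
The core TGTGGT, bound by RUNX factors, was found in 1 of the 8 windows, an *ITGA6* window, and in 11.0% of all windows. The word GTAAACA, bound by FOXO factors, was in 0 of the 8 windows and in 2.98% of all windows. Both strands were searched, and a match is only a match of letters.

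The knockdown itself was visible in all lines. The level of *CCND3*, the targeted cyclin D3 gene, was 19499 with scrambled and 4727 with *CCND3* shRNA in NALM-6, 16178 and 3353 in the MLL-AF4 line, and 6619 and 2060 in BV-173, which is 4.12-fold, 4.82-fold and 3.21-fold lower. After palbociclib *CCND3* was between 1.22-fold and 1.32-fold lower. A gene is described below as past 1.5-fold when its 2 levels differed at least 1.5-fold and their mean was at least 10.

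*ITGAD* had the largest difference of the set. In the MLL-AF4 line its level was 11.2 with scrambled shRNA and 317 with *CCND3* shRNA, and 7.03 with DMSO and 43.2 with palbociclib. It was thus 28.2-fold higher after knockdown (log2 ratio 4.82) and 6.15-fold higher after palbociclib (2.62). With a pseudocount of 10 added to each level these log2 ratios were 3.94 and 1.64. Among the genes with a mean level of at least 10, the ratio without pseudocount was rank 1 of 12140 for knockdown and rank 59 of 12043 for palbociclib, counted from the largest. In the palbociclib pair the control level of *ITGAD* was under 10, so it entered that ranking only through its treated level. The ranks are therefore given as a description. In NALM-6 the level of *ITGAD* was 6.05 with scrambled and 74.8 with *CCND3* shRNA, 12.4-fold higher (log2 ratio 3.63, or 2.40 with the pseudocount) and rank 2 of 11726. Here too *ITGAD* entered the ranking only through its treated level. Palbociclib took it in the same line only from 1.00 to 3.87, below the minimum level. In BV-173 *ITGAD* was low in all 4 groups, at 5.09 and 7.60 for scrambled and *CCND3* shRNA and at 1.48 and 2.59 for DMSO and palbociclib. The gene was therefore near the lower end of the measured range in every control group, and above a level of 10 after treatment in 3 groups. The size of ratios varied with the level. Over the 6 comparisons the median absolute log2 ratio was between 0.0611 and 0.230 at mean levels under 2, between 0.242 and 0.793 from 2 to 10, between 0.293 and 0.836 from 10 to 50, and between 0.196 and 0.337 at 1000 or more.

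*ITGAD* and *ITGAX* have some stretches of sequence in common, so some reads could be shared between them. Of the 3840 different words of 50 bases in the *ITGAD* transcript of GENCODE 44, 67 (1.74%) also occur in *ITGAX* transcripts. *ITGAX* shared 1.52% of its words with other genes of the set and *ITGAM* 0.412%, while the other 7 genes shared 0. In the NALM-6 knockdown group *ITGAX* stood at 2.01 and *ITGAM* at 5.11, both below the *ITGAD* level of 74.8. In RS4;11 the order was the reverse, with *ITGAX* at 5485 and *ITGAD* at 317 after knockdown, and at 2374 and 43.2 after palbociclib, and both genes were higher in the same pairs. The part of shared reads in these *ITGAD* levels was not tested.

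**Figure D1:**
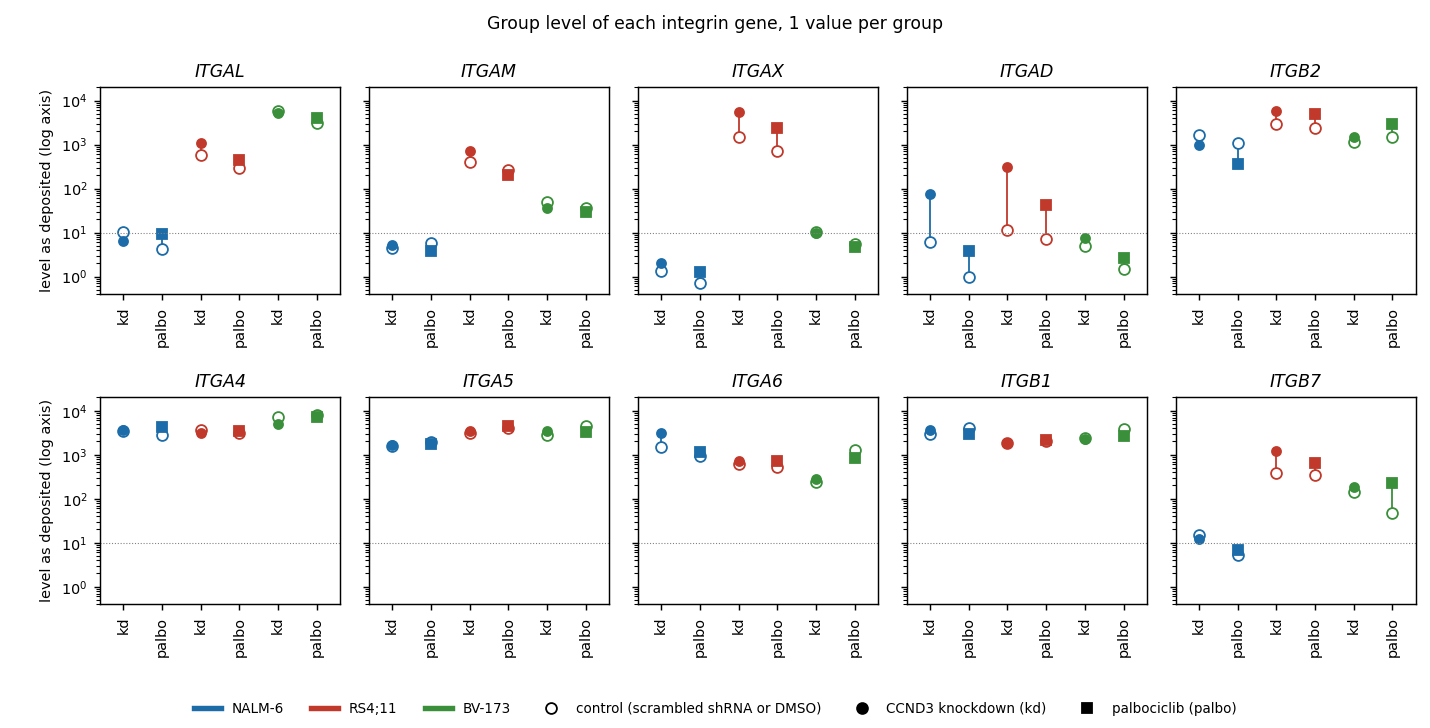
Level of each integrin gene in the 12 groups as deposited, on a log axis, with open circles for the control group, filled circles for *CCND3* knockdown (kd) and squares for palbociclib (palbo). Colours mark the lines, each marker is 1 group value with no error bar, and the dotted line is the level of 10. *ITGAD* is at 11.2 or lower in every control group and reaches 317 in RS4;11 and 74.8 in NALM-6 after knockdown, whereas *ITGA4*, *ITGA5* and *ITGB1* stay between 1580 and 8052 throughout.

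*ITGAX*, a marker of dendritic cells and some B-cell leukaemias, was abundant only in RS4;11 among these lines. There it was 1471 with scrambled and 5485 with *CCND3* shRNA, 3.73-fold higher, and 730 with DMSO and 2374 with palbociclib, 3.25-fold higher. In NALM-6 it ranged from 0.711 to 2.01 and in BV-173 from 4.62 to 10.5 over the 4 groups, and no ratio there passed both conditions. *ITGAM* was also highest in RS4;11, and there it was past 1.5-fold after knockdown only. It was 412 and 714 for scrambled and *CCND3* shRNA, 1.73-fold higher. For DMSO and palbociclib it was 271 and 202, 1.34-fold lower and within 1.5-fold. In BV-173 *ITGAM* was 50.1 and 36.4 in the knockdown pair and 36.4 and 29.3 in the palbociclib pair, within 1.5-fold both times. In NALM-6 it stayed between 3.83 and 5.89.

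*ITGAL*, the alpha chain of LFA-1, was the main β2 partner of BV-173. Its level there was 5873 and 5325 for scrambled and *CCND3* shRNA, and 3149 and 4130 for DMSO and palbociclib, so that neither treatment moved it past 1.5-fold. In RS4;11 it was 592 and 1116 in the knockdown pair, 1.89-fold higher, and 290 and 445 in the palbociclib pair, 1.54-fold higher, which is just past the threshold. In NALM-6 *ITGAL* was at 10.2 and 6.44, and at 4.23 and 9.16, always below the minimum mean level.

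*ITGB2*, the common β2 chain, was abundant in all lines and differed between them in direction. In NALM-6 it was lower after both treatments, from 1661 to 972 after knockdown (1.71-fold) and from 1088 to 366 after palbociclib (2.97-fold). In RS4;11 it was higher after both, from 2991 to 5658 (1.89-fold) and from 2423 to 5028 (2.08-fold). In BV-173 it was 1143 and 1469 in the knockdown pair, within 1.5-fold, and 1472 and 2939 in the palbociclib pair, 2.00-fold higher. NALM-6 was thus the line in which the β2 chain was lower while the level of *ITGAD* was higher.

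To set the chains against each other, levels were expressed per-million and per kilobase of the transcript length given in the tables. The per-million scale used the summed level of the group over the 13307 genes listed in every table. The tables may have been scaled separately, so a value from one table is set beside another only on this scale. The 4 alpha partners of *ITGB2* summed to between 0.127 and 1.22 in NALM-6, between 13.7 and 83.1 in the MLL-AF4 line, and between 31.8 and 58.9 in BV-173. In the MLL-AF4 line the sum was 27.2 with scrambled and 83.1 with *CCND3* shRNA, while *ITGB2* was 53.1 and 98.4. The ratio of *ITGB2* to its alpha chains was 1.95 and 1.18 in that pair, and 3.03 and 2.63 with DMSO and palbociclib. In BV-173 *ITGB2* was below its alpha chains in 3 of 4 groups, at a ratio of 0.338 with scrambled shRNA, 0.479 with *CCND3* shRNA and 0.809 with DMSO, against 1.24 with palbociclib. In NALM-6 the ratio was 119 with scrambled and 14.9 with *CCND3* shRNA, and 149 with DMSO and 32.3 with palbociclib, so the β2 transcript was far above its measured partners in each group.

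The leading alpha chain differed between RS4;11 and BV-173, and in NALM-6 it differed between groups. *ITGAX* made up 60.6% of the alpha sum in the MLL-AF4 line with scrambled shRNA, 72.3% with *CCND3* shRNA, 57.5% with DMSO and 78.4% with palbociclib. *ITGAL* made up between 98.5% and 99.0% in the 4 BV-173 groups. In NALM-6, where the sum was low, *ITGAL* gave 41.2% and *ITGAD* 32.8% with scrambled shRNA, and *ITGAD* 87.5% with *CCND3* shRNA. With DMSO *ITGAM* gave 50.5% and *ITGAD* 10.4%, and with palbociclib *ITGAL* gave 45.9% and *ITGAD* 25.9%. Apart from *ITGAD* after knockdown, these NALM-6 shares rest on deposited levels of 10.2 or lower. *ITGAD* remained a small share in RS4;11, at 0.557% with scrambled shRNA and 5.04% with *CCND3* shRNA, although its ratio was the largest there.

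**Figure D2:**
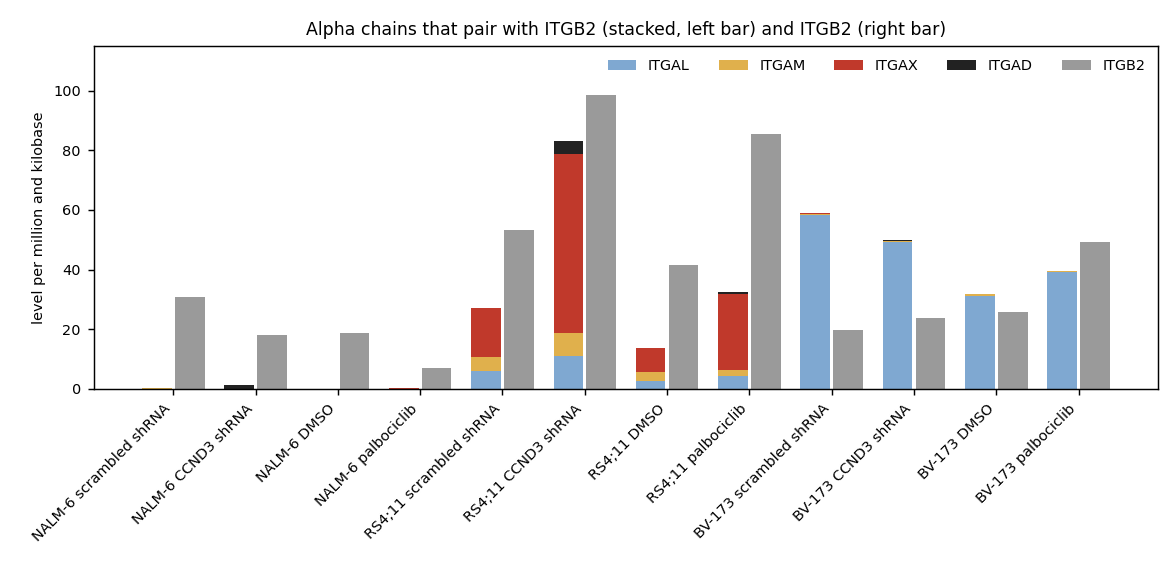
Level per-million and per kilobase of *ITGAL*, *ITGAM*, *ITGAX* and *ITGAD* (stacked left bar) and of *ITGB2* (right bar) in each group, 1 value per group with no error bar. The alpha sum is at most 1.22 in NALM-6, is led by *ITGAX* in RS4;11 with 83.1 after knockdown, and is nearly all *ITGAL* in BV-173.

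The α4 and β1 chains of VLA-4 were among the most constant members. *ITGA4* was 3511 and 3574 in the NALM-6 knockdown pair, 3628 and 3169 in that of RS4;11, and 7091 and 4925 in that of BV-173, where it was 1.44-fold lower, the value nearest to the threshold from below. After palbociclib it was 2765 and 4218 in NALM-6, 1.53-fold higher and just past the threshold, 3183 and 3411 in the MLL-AF4 line, and 8052 and 7117 in BV-173. *ITGB1* passed 1.5-fold in 0 of the 6 comparisons. Its levels in the knockdown pair were 2987 and 3661 in NALM-6, 1880 and 1864 in the MLL-AF4 line, and 2375 and 2328 in BV-173. In the palbociclib pairs they were 4100 and 2972, 2039 and 2126, and 3795 and 2707, in the same order.

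*ITGB7*, the other partner of α4, varied more. In the MLL-AF4 line it was 383 with scrambled and 1211 with *CCND3* shRNA, 3.16-fold higher, and 351 with DMSO and 665 with palbociclib, 1.90-fold higher. In BV-173 it was 146 and 182 in the knockdown pair, within 1.5-fold, but 46.6 and 227 in the palbociclib pair, 4.87-fold higher and rank 41 of 11305. In NALM-6 it was 15.3 and 12.4, and 5.24 and 6.91. On this per-million and per-kilobase scale, *ITGB7* was 21.6% of the sum of *ITGB1* and *ITGB7* in the MLL-AF4 line with scrambled shRNA and 46.7% with *CCND3* shRNA. With DMSO and palbociclib the share in that line was 18.8% and 29.7%. In BV-173 it was 1.63% with DMSO and 10.1% with palbociclib, but 7.63% with scrambled and 9.55% with *CCND3* shRNA. The 2 controls of BV-173 thus differed in this share. In NALM-6 it was between 0.172% and 0.688%.

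*ITGA5*, the fibronectin receptor chain, passed 1.5-fold in 0 of the 6 comparisons. Its log2 ratios after knockdown were 0.11 in NALM-6, 0.20 in the MLL-AF4 line and 0.25 in BV-173. Those after palbociclib were -0.21, 0.10 and -0.45. *ITGA6*, the laminin receptor chain and a marker used for residual B-ALL, was 1501 and 3076 in the NALM-6 knockdown pair, 2.05-fold higher. In the same line it was 930 and 1131 in the palbociclib pair. In the MLL-AF4 line it was 607 and 716, and 530 and 706, within 1.5-fold. In BV-173 it was 245 and 282 in the knockdown pair, and 1258 and 831 in the palbociclib pair, 1.51-fold lower, just past the threshold.

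By comparison, the set gave these counts. In RS4;11 all 10 genes had a mean level of at least 10, and after knockdown 6 were at least 1.5-fold higher and 0 lower, with a median log2 ratio of 0.85 against -0.01 over all genes tested. Of all genes tested there, 10.4% were at least 1.5-fold higher and 11.3% lower. After palbociclib 5 of the 10 were higher and 0 lower, with a median of 0.52 against 0.00, where 16.5% of all genes were higher and 16.5% lower. The genes higher after both treatments in the MLL-AF4 line were *ITGAD*, *ITGAX*, *ITGB7*, *ITGB2* and *ITGAL*, and *ITGAM* was past the threshold after knockdown alone. In NALM-6 7 of the 10 genes had a sufficient level in the knockdown comparison, of which 2 were higher and 1 lower, beside 8.55% and 10.4% of all genes. In the palbociclib comparison of NALM-6 5 genes remained, of which 1 was higher and 1 lower, beside 18.8% and 17.6%. In BV-173 0 of 9 genes were past 1.5-fold after knockdown, beside 4.05% higher and 5.39% lower of all genes. After palbociclib 2 of 8 were higher and 1 lower in BV-173, beside 14.6% and 14.3%. Because the set was chosen with values of these contrasts known, nothing is read from the distance to these shares. In 0 genes of the set did the 3 lines pass 1.5-fold in the same direction for either treatment. Of all genes with a sufficient level in all 3 lines, 0.692% were higher and 2.27% lower in each line after knockdown. After palbociclib these shares were 4.45% and 7.47%. *ITGAL*, *ITGAM* and *ITGAX* in NALM-6 and *ITGAD* in BV-173 were under the minimum level, so these genes could not count. Nothing is read from this count of 0.

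**Figure D3:**
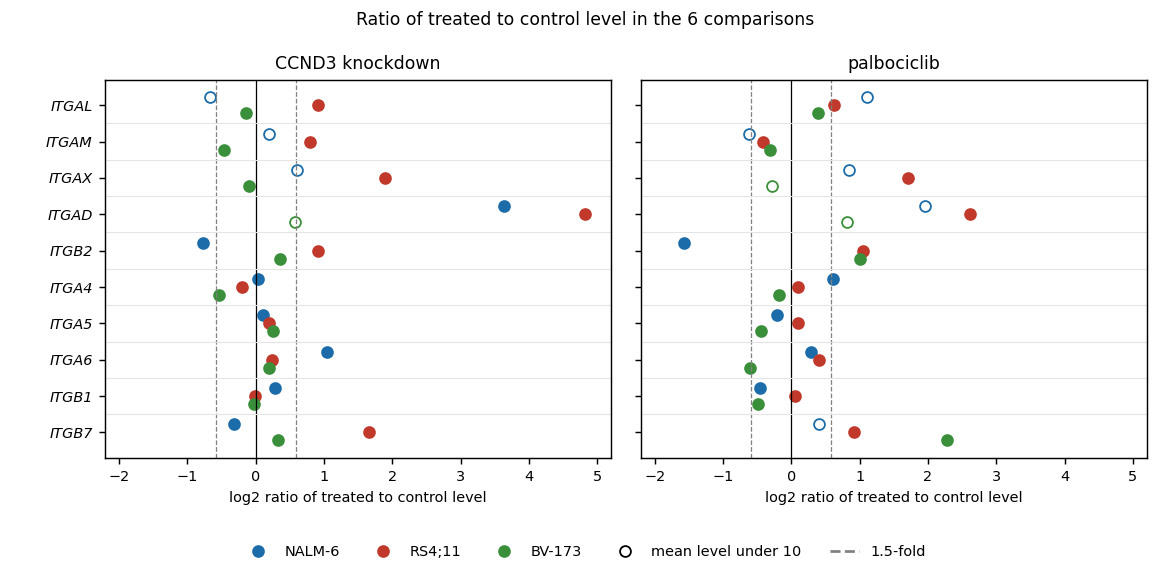
Log2 ratio of the treated to the control level of each integrin gene, for *CCND3* knockdown (left) and palbociclib (right), 1 point per line, with open points where the mean level was under 10 and dashed lines at 1.5-fold. In RS4;11 6 genes lie beyond the upper line after knockdown and 5 after palbociclib, while *ITGB2* lies below the lower line in NALM-6 under both treatments.

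The 2 treatments had separate controls, and these allow a look at how far untreated groups of a line lie apart. Scrambled shRNA and DMSO groups differ in transduction, sorting and day of collection, which cannot be told apart from the spread between samples here. The comparison was made on per-million levels, since the tables may have been scaled separately. At least 1.5-fold apart either way were 16.7% of all genes in NALM-6, 8.22% in the MLL-AF4 line and 11.1% in BV-173. Of the integrin genes with a sufficient level, 3 of 6 were that far apart in NALM-6, 3 of 9 in the MLL-AF4 line and 5 of 8 in BV-173. *ITGA6* had the largest gap among these, with per-million levels of 65.4 with DMSO and 12.7 with scrambled shRNA in BV-173, a 5.16-fold gap beside a 1.51-fold difference after palbociclib. *ITGAL* in RS4;11 had per-million levels of 14.7 and 31.2 with DMSO and scrambled shRNA, 2.12-fold apart, more than after either treatment. *ITGB7* was 3.11-fold apart in BV-173 and 3.12-fold apart in NALM-6, and 1.14-fold in the MLL-AF4 line. *ITGAX* in the MLL-AF4 line was 2.09-fold apart, less than its 3.73-fold and 3.25-fold differences. *ITGAM* in that line was 1.58-fold apart, beside differences of 1.73-fold after knockdown and 1.34-fold after palbociclib.

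*ITGAD* had a per-million level of 0.357 with DMSO and 0.592 with scrambled shRNA in the MLL-AF4 line, 1.66-fold apart, and 0.0517 and 0.332 in NALM-6, 6.43-fold apart, all at low levels. Its difference in the NALM-6 knockdown pair exceeded the gap between the controls of that line by less than that in RS4;11. For genes past 1.5-fold, the difference was set against the gap between their controls. It was larger for 3 of 3 genes in the NALM-6 knockdown pair and 2 of 2 in the NALM-6 palbociclib pair. In RS4;11 it was larger for 5 of 6 and 4 of 5, with *ITGAL* the exception each time. In the BV-173 palbociclib pair it was larger for 2 of 3, with *ITGA6* the exception. Only genes already past 1.5-fold were counted, which favours larger differences in advance. The same count over all genes was not made, so nothing is read from these counts.

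**Figure D4:**
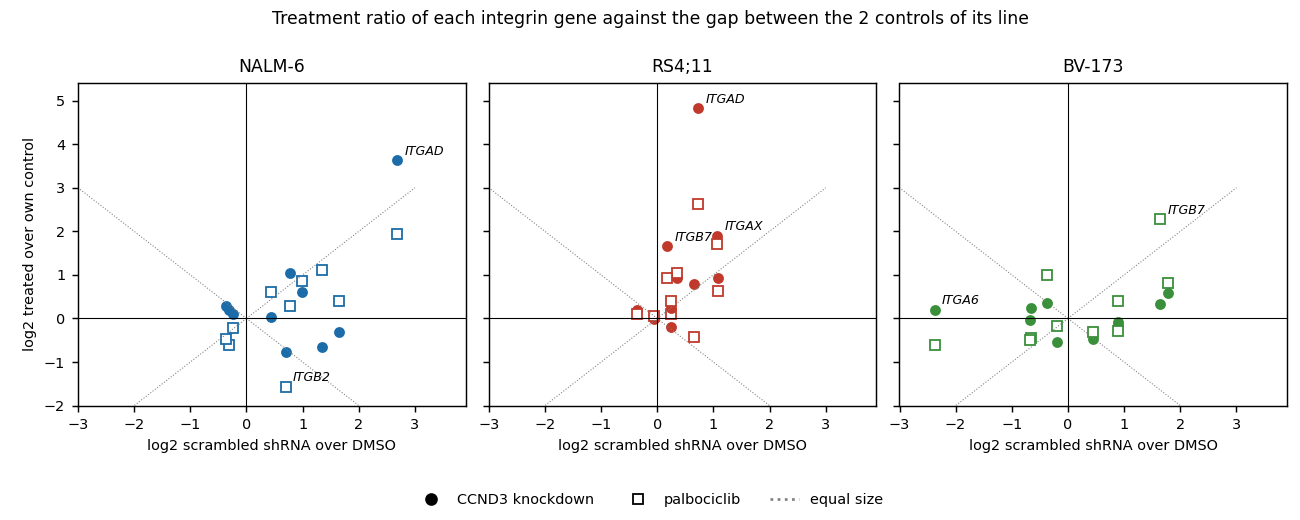
Log2 ratio of each integrin gene to its own control (vertical axis, filled circles for knockdown and open squares for palbociclib) against the log2 ratio of scrambled shRNA to DMSO on per-million levels in the same line (horizontal axis), 1 panel per line. Points between the dotted lines and the horizontal axis moved less than the 2 controls differ, as *ITGA6* in BV-173, whose controls are 5.16-fold apart, while *ITGAD* in RS4;11 lies far above at 4.82.

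The order of the 3 lines was taken from the per-million control levels, and lines were called separated only where the ranges of the 2 controls did not overlap. RS4;11 was above BV-173, and BV-173 above NALM-6, for *ITGAM*, *ITGAX* and *ITGB7*. BV-173 was above RS4;11, and RS4;11 above NALM-6, for *ITGAL*. RS4;11 was above NALM-6 and above BV-173 for *ITGAD* and *ITGB2*, while BV-173 overlapped NALM-6 for these genes. For *ITGA5* RS4;11 and BV-173 overlapped each other and were both above NALM-6. BV-173 was above RS4;11 and above NALM-6 for *ITGA4*, where RS4;11 and NALM-6 overlapped. For *ITGB1* BV-173 and NALM-6 overlapped each other and were both above RS4;11. For *ITGA6* NALM-6 was above the MLL-AF4 line, with controls of 48.0 and 82.3 against 27.0 and 32.0, and BV-173 overlapped both. All 3 lines were thus separated for *ITGAL*, *ITGAM*, *ITGAX* and *ITGB7*.

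The pattern of *ITGAD* over the 12 groups was compared with 11799 genes by Pearson's r on log2 per-million levels, as a description in which groups share lines and tables. No pseudocount was added, and *ITGAD* was at a deposited level of 11.2 or lower in every control group. Differences between low levels therefore enter these values of r. The genes most like it were *IL9R* (r = 0.90), the interleukin-9 receptor, *MEF2A* (0.89), a transcription factor, *ZDHHC7* (0.89), *DNAJB12* (0.88) and *ZNF394* (0.88). Within the set, *ITGAX* had an r of 0.62, *ITGB2* 0.50, *ITGB7* 0.49 and *ITGAM* 0.46. *ITGAL* had 0.01, *ITGA4* -0.42 and *ITGB1* -0.45. Even the nearest gene of the set, *ITGAX*, stood at rank 709 of 11799.

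*ITGAD* was also compared with genes that lie within 200 kb of it on chromosome 16. In RS4;11, 5 such genes reported here, other than integrins, had a sufficient level, with log2 ratios between 0.17 and 0.67 after knockdown and between -0.49 and 1.02 after palbociclib. After knockdown *PYCARD* (879 and 1397) and *TRIM72* (590 and 901) were higher. After palbociclib *ARMC5* (728 and 1473) was higher. In the NALM-6 knockdown pair 4 of these neighbours had log2 ratios between -0.84 and 0.49. *ITGAD* and *ITGAX* lay above these ranges in RS4;11 after both treatments, and *ITGAM* lay just above them after knockdown only.

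**Figure D5:**
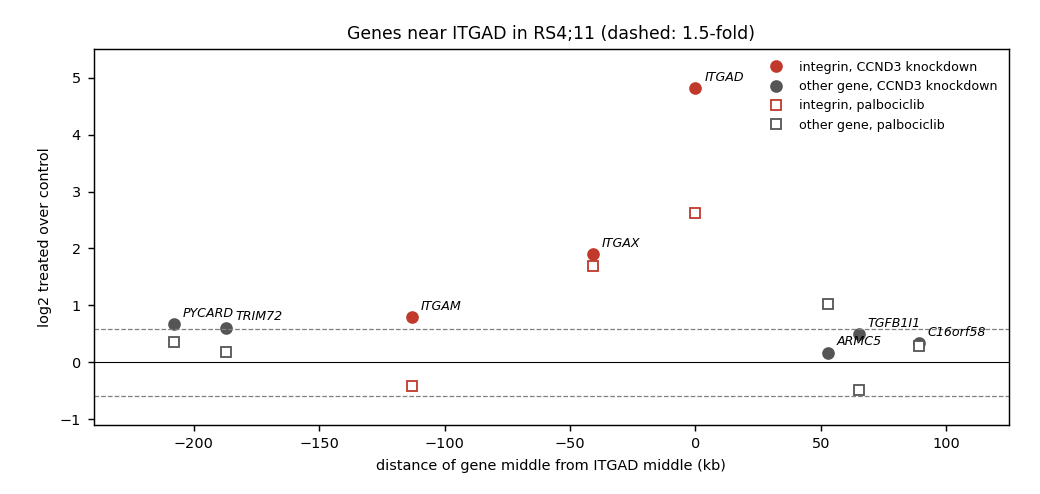
Log2 ratio of treated to control level in RS4;11 for genes near *ITGAD*, by distance of the gene middle from that of *ITGAD* in kilobases, for knockdown (filled circles) and palbociclib (open squares), with integrins in red. *ITGAD* (4.82 and 2.62) and *ITGAX* (1.90 and 1.70) are above all other genes shown, whose ratios lie between -0.49 and 1.02.

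Genes that act with the integrins were read from lists, whose counts stand beside the shares of all genes given above for the same comparison. Of 16 activators of integrins, among them talins and kindlins that bind the tail of the beta chain, 2 were higher and 1 lower of 13 with a sufficient level in the RS4;11 knockdown pair, and 3 higher and 0 lower of 13 in the palbociclib pair, where 10.4% and 11.3%, and 16.5% each way, of all genes were past the threshold. In NALM-6 1 was higher and 1 lower of 11 after knockdown, and 4 higher and 1 lower of 11 after palbociclib. In BV-173 0 of 11 were past the threshold after knockdown, and 1 was higher and 1 lower of 11 after palbociclib. *TLN2*, a talin, was higher after palbociclib in each line, at 109 and 271 in NALM-6, 456 and 867 in the MLL-AF4 line and 359 and 553 in BV-173. *FERMT3*, the kindlin-3 of blood cells, was chosen for mention after its values were seen. It was 7000 and 11111 in the MLL-AF4 knockdown pair and 6225 and 13473 in the palbociclib pair, and 3617 and 4358, and 4515 and 3214, in BV-173. In NALM-6 it was 5035 and 5070, and 5178 and 5411. The 5 inhibitors of integrins passed 1.5-fold in 1 of the 6 comparisons, where 1 gene was lower after palbociclib in NALM-6.

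Of 18 genes of the adhesion complex, which links integrins to actin, 15 or 16 had a sufficient level. After knockdown 0 were higher and 2 lower in NALM-6, 2 higher and 0 lower in the MLL-AF4 line, and 2 higher and 2 lower in BV-173. After palbociclib 4 were higher and 2 lower in NALM-6, 2 higher and 3 lower in the MLL-AF4 line, and 4 higher and 3 lower in BV-173. The PINCH adaptors *LIMS2* and *LIMS1* differed in opposite directions after palbociclib in all 3 lines. *LIMS2* was 8.14 and 23.7 in NALM-6, 2168 and 3632 in the MLL-AF4 line and 346 and 1511 in BV-173, and *LIMS1* was 1336 and 706 in NALM-6 and 1806 and 1160 in the MLL-AF4 line, and 1.74-fold lower in BV-173.

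Of 14 integrin ligands, 8 or 9 had a sufficient level, and between 1 and 2 were higher and between 0 and 2 lower in each comparison. *JAM3*, a junction protein bound by Mac-1, was lower after knockdown in each line, at 27.5 and 14.1 in NALM-6, 14.2 and 8.90 in the MLL-AF4 line and 44.4 and 20.6 in BV-173. *ICAM1*, the main ligand of LFA-1, was also chosen after its values were seen, and was 257 and 1133 in the palbociclib pair of NALM-6. In the other comparisons it was 1.58-fold higher (NALM-6 knockdown), 1.48-fold and 1.49-fold higher (the MLL-AF4 line), 1.59-fold higher (BV-173 knockdown) and 1.17-fold higher (BV-173 palbociclib). Of 10 surface partners, tetraspanins and other proteins that associate with integrins, all had a sufficient level. After knockdown 1 was higher and 3 lower in NALM-6, 3 higher and 1 lower in the MLL-AF4 line, and 1 higher and 0 lower in BV-173, and after palbociclib 3 were higher and 1 lower in each line. Among them *CD37* was higher in each line after both treatments, with levels after knockdown of 74.3 and 189 in NALM-6 (2.54-fold) and 2979 and 6735 in the MLL-AF4 line (2.26-fold), and a 1.64-fold difference in BV-173. *CD82* was higher after palbociclib in each line, with 129 and 789, 65.9 and 299, and 11.3 and 17.2, as was *CD53*. *SLC3A2*, the CD98 heavy chain that binds β1 tails, was lower after palbociclib in each line, at 3662 and 1855, 3721 and 1704, and 7175 and 3881. Of all genes measured in 3 lines, 0.692% were higher and 2.27% lower past 1.5-fold in each line after knockdown, and 4.45% and 7.47% after palbociclib.

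Of 16 other integrin subunits, 7 to 9 had a sufficient level, and their median log2 ratio was between -0.45 and -0.07 in the 6 comparisons. In the MLL-AF4 line 2 were higher and 1 lower after knockdown, and 1 higher and 3 lower after palbociclib. Their summed level was between 450 and 3815, against 10423 to 23760 for the 10 genes of the set.

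Markers of cell types were read beside these values, since β2 integrins are also typical of myeloid cells. All 11 B-lineage markers reported here had a sufficient level in every comparison, with summed levels between 58699 and 108508 per group. *CD79A*, a signalling chain of the B-cell receptor, was higher after palbociclib in each line, at 1870 and 6621 in NALM-6, 11928 and 21607 in the MLL-AF4 line and 6978 and 11402 in BV-173. In the MLL-AF4 knockdown pair 3 of the 11 markers were higher (*CD22* 2.59-fold, *CD79B* 2.35-fold and *BLNK* 1.53-fold). There 2 were lower (*DNTT* 1.79-fold and *IGLL1* 1.65-fold). After palbociclib 3 were higher and 1 lower in that line. In NALM-6 1 was higher and 0 lower after knockdown, and 2 higher and 2 lower after palbociclib. In BV-173 0 were higher and 2 lower after knockdown. The shares of all genes are those given above for each comparison. *PAX5*, the B-lineage factor, was 14639 and 14992 in the MLL-AF4 knockdown pair, and 11865 and 7880 in the BV-173 palbociclib pair, 1.51-fold lower. In that BV-173 pair 6 of the 11 markers were lower and 1 higher, with a median log2 ratio of -0.59, among them the recombinase genes *RAG1* (3.82-fold lower) and *RAG2* (2.61-fold lower) and the factor *EBF1* (1.62-fold lower). Of 12 myeloid markers, 5 had a sufficient level in RS4;11, with a summed level of 1171 and 1143 in the knockdown pair and 885 and 1043 in the palbociclib pair. Of these, 1 was higher after knockdown and 2 after palbociclib. The defining marker *CD14* was between 0.279 and 2.06 in the 4 MLL-AF4 groups and *MPO* between 1.05 and 13.5, and *LYZ* was 41.3 and 50.5 in the knockdown pair. Other myeloid genes had larger levels in this line, with *CSF1R* between 284 and 508 and *CEBPA* between 409 and 486. *CD33* was 100 and 178 in the knockdown pair and 90.6 and 229 in the palbociclib pair, past the threshold in both. In NALM-6 3 of 4 myeloid markers were higher after knockdown, with sums of 414 and 633, beside 8.55% of all genes. These were *LYZ* (57.0 and 98.7), *CD33* (301 and 471) and *CEBPA* (23.0 and 34.6), the last just at the threshold. After palbociclib in NALM-6 2 of 4 were higher and 0 lower, with *MPO* at 13.7 and 68.4, beside 18.8% and 17.6% of all genes. In BV-173 the sums were 2240 and 2885, and 2089 and 3579. There 0 of 5 myeloid markers were higher and 1 lower after knockdown, beside 4.05% and 5.39%. After palbociclib 2 of 6 were higher and 2 lower, beside 14.6% and 14.3%. *CSF1R* was at 145 and 513 in the palbociclib pair. *MPO* was lower in both BV-173 pairs, at 25.2 and 15.9, and at 28.8 and 14.4. *CD3D* was at most 7.28 and *CD3E* at most 1.30 where listed, and *NCAM1* was at most 0.633. Among 8 T-cell markers 1 or 2 and among 8 NK-cell markers 2 to 4 had a sufficient level, with summed levels in the MLL-AF4 line of 1145 and 1328, and 1551 and 2043, in the knockdown pair. Nearly all of these sums came from *LCK*, at 1138 and 1320, and *NKG7*, at 1397 and 1872. The marker genes named here beyond *CD79A*, *PAX5*, *CD14*, *MPO*, *LYZ*, *CD3D*, *CD3E* and *NCAM1* were chosen after their values were seen. In bulk samples, fewer cells of a type and less RNA per cell cannot be told apart, and the part of the marker levels in the integrin values was not tested.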

How the data were processed

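RNA was sequenced on a BGI platform from oligo-dT selected libraries of the 34 samples, grouped by line and treatment as labelled. Per the labels and the study's methods, SOAPnuke cleaned the reads, Bowtie2 aligned them (hg38), RSEM gave abundances, and DESeq2 was the authors' tool for comparing groups. Nothing says that replicates came from separate cultures. The deposited tables hold, per gene, a signal (a level pooled over each group, whose scaling is not given in the sources used here), the gene length, and 4 columns of the authors' own comparison (fold change, p-value, adjusted p and direction), which were not used. The files thus hold another unit than per-sample values, so depth per sample is unknown and no test was made.

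Levels and log2 ratios were computed with Python 3.11.15, numpy 2.4.6 and pandas 2.3.3, and plotted with matplotlib 3.10.9. A gene was called at 1.5-fold with a mean level of at least 10. The calls were tested on simulated data, with changes larger than 1.5-fold at mean levels of at least 50. That does not show how the calls behave at lower levels or at the real spread between samples. Alternatives were a 2-fold threshold, a pseudocount of 10, no level filter, a minimum of 50 and median centring. Between tables, levels were set as per-million of the group sum over the genes listed in all 6 tables. Positions and promoter sequences are those of RefSeq (GRCh38.p14), with positions for all 10 genes and promoter windows for 6 of 10. Named were all 10 genes, the cell type markers, the 5 genes most like *ITGAD*, and from each of 10 further lists up to 4 genes per treatment past 1.5-fold in the same direction in all 3 lines. *FERMT3*, *ICAM1*, the neighbours of *ITGAD* and some markers fall outside this rule and were chosen after their values were seen. The members and lists were chosen with earlier results of these data known. Of the list genes and the neighbours of *ITGAD*, 2 genes are not reported here and were left out of those counts.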

Additional observations from a re-analysis of the deposited data

Results flagged for a closer look

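*ITGB2* was the 1 gene of the set that passed 1.5-fold in opposite directions in different lines under the same treatment. Genes under the minimum level in a line could not count in that line. The same count over all genes was not made, so nothing is read from the count of 1. Its log2 ratio after *CCND3* knockdown was 0.92 in RS4;11, 0.36 in BV-173 and -0.77 in NALM-6. The values after palbociclib were 1.05, 1.00 and -1.57, in the same order. Whether the lines differ could not be tested, because the tables give 1 value per group, so the difference was not tested. On per-million levels the scrambled shRNA and DMSO controls were 1.62-fold apart for this gene in NALM-6, 1.28-fold in the MLL-AF4 line and 1.29-fold in BV-173.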

How the results depend on the processing

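Counts of integrin genes past 1.5-fold kept within 1.5 times the given count under a pseudocount of 10, a minimum level of 50 and median centring in all 6 comparisons. With a 2-fold threshold the counts became 2 in place of 3 (NALM-6 knockdown; *ITGAD* and *ITGA6* left), 1 in place of 2 (NALM-6 palbociclib, *ITGB2* left), 3 in place of 6 (RS4;11 knockdown; *ITGAD*, *ITGAX* and *ITGB7* left), 3 in place of 5 (RS4;11 palbociclib; *ITGAD*, *ITGAX* and *ITGB2* left) and 1 in place of 3 (BV-173 palbociclib, *ITGB7* left). At that threshold *ITGB2* was past it in opposite directions after palbociclib (NALM-6 and RS4;11), and in no line after knockdown. With no filter on low levels they became 5 in place of 3 in the NALM-6 knockdown pair and 6 in place of 2 in the NALM-6 palbociclib pair. In the BV-173 palbociclib pair the count became 4 in place of 3. The added genes had mean levels under 10. At a minimum level of 50 *ITGAD* was no longer counted in the NALM-6 knockdown pair and in the RS4;11 palbociclib pair. Of 60 log2 ratios, 60 moved by less than 0.2 with centring and 47 with a pseudocount of 10. The 13 others included *ITGAD* in all 6 comparisons, which became 3.94 in place of 4.82 and 1.64 in place of 2.62 in RS4;11, 2.40 in place of 3.63 and 0.33 in place of 1.95 in NALM-6, and 0.22 in place of 0.58 and 0.13 in place of 0.81 in BV-173 (knockdown, then palbociclib). The order of the 3 lines was the same for 5 of 10 genes when DMSO replaced the scrambled control, and for 9 of 10 on levels as deposited. No paired analysis was possible because the tables hold 1 value per group, and leaving out a replicate was not possible for the same reason. What limits these values is the unknown spread between samples.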
